A study of Mus musculus with 4 samples.

Results

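The genes described here are enzymes of cholesterol synthesis and targets of the transcription factor SREBP2, measured in the mouse mammary gland. They were chosen by name, as all probe sets whose platform gene symbol was Hmgcs1, Sqle, Idi1, Fdft1, Fdps, Cyp51, Sc5d or Insig1. Of these 8 genes, 7 were read, by 18 of the 22690 probe sets and as 7 of 12393 named genes. Insig1 was matched to no probe set of the platform table used and was not analysed here. RNA came from the mammary gland of nulliparous female FVB mice, either wild type or carrying MMTV-PPARd, a transgene for the nuclear receptor PPARδ under the promoter of the mouse mammary tumour virus, which is used to drive expression in mammary epithelium. Mice of each genotype ate standard rodent chow or chow with GW501516, a synthetic PPARδ agonist, for 1 week. The labels give its content as 0.005% in the protocol and as 0.001% in a treatment tag. Per the labels, RNA of 5 mice was pooled for each of the 4 groups and each group was hybridised as 1 array, so no replicate spread exists, no test was run, and every difference below describes these 4 pools. The sources used here give neither the age of the mice nor the number of transgenic lines.

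Cholesterol is built from acetyl-CoA by a chain of enzymes in the cytosol and the endoplasmic reticulum. SREBP2 is held in the membrane of the endoplasmic reticulum by SCAP and INSIG proteins while sterols are plentiful. When sterols run low it moves to the Golgi, is cut by proteases, and enters the nucleus to raise the genes of the whole chain. In the mammary gland both the epithelium, which puts cholesterol into milk fat globule membranes, and the adipocytes of the fat pad carry this pathway.

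Promoter windows of 250 bases before to 50 after the start site were found for 4 measured members in RefSeq's table for GRCm38.p6. They are shown because sterol control of these genes is known to act through sterol regulatory elements with NF-Y boxes beside them. Capitals mark the NF-Y box (CCAAT or its reverse complement) and matches to TCACNCCAC, a core of the sterol regulatory element, on either strand with at most 1 mismatch. The windows lie at chr13:119690101-119690400, + strand (Hmgcs1), chr13:8885356-8885655, + strand (Idi1), chr5:4104648-4104947, - strand (Cyp51) and chr9:42264251-42264550, - strand (Sc5d).
Hmgcs1: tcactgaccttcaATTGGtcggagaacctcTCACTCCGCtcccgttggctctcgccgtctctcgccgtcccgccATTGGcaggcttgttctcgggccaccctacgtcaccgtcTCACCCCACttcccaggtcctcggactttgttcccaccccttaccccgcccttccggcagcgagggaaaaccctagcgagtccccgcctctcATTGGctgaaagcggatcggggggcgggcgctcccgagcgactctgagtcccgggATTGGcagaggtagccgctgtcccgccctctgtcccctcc
Idi1: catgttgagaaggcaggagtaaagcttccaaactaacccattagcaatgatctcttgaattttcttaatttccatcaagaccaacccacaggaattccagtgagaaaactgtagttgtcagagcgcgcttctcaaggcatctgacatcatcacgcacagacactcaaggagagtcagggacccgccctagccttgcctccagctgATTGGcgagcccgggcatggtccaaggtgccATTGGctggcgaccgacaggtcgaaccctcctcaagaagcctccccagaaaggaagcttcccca
Cyp51: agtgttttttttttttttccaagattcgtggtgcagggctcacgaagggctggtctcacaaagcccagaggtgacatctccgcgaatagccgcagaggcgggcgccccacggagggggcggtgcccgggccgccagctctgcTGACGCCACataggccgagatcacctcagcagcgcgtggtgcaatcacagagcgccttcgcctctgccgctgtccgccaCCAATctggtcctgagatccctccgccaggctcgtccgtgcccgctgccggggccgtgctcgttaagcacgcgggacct
Sc5d: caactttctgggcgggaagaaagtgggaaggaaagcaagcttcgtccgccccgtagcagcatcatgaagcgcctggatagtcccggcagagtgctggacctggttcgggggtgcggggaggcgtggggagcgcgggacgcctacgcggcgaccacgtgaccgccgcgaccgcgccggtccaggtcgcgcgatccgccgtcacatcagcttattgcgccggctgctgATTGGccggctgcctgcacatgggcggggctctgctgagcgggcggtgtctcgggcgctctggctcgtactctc

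The Hmgcs1 window held an exact TCACNCCAC, as TCACCCCAC 137 bases before the start site, and a second match with 1 mismatch. Of 32851 windows of this length, 1.24% held the exact element and 24.2% a match with at most 1 mismatch. Cyp51 had a match with 1 mismatch, TGACGCCAC, 108 bases before its start. The Idi1 and Sc5d windows had none, so that 2 of 4 windows held a match with at most 1 mismatch. All 4 windows held an NF-Y box, which 37.4% of windows did, and Hmgcs1 had 4 of them. All 4 also held the Sp1 box GGGCGG on either strand, which 35.7% of windows did. No window of the 4 held the direct-repeat PPAR response element on either strand with at most 2 mismatches, a match that 3.86% of windows had. These matches describe the letters only.

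Values are probe set intensities on a linear scale, as deposited, scaled by the authors to a common trimmed mean. Intensities under a floor of 20.5 (25th percentile) were raised to it before taking log2, and a gene's value is that of its brightest probe set. Ppard read 2.1 and 1.5 in the wild-type pools on chow and GW501516 and 1943 and 4224 (chow and GW501516) in the transgenic pools, as the labels say. This is its brightest probe set by mean, a choice that rests on the transgenic arrays. Both wild-type values lie below the floor, so they give no level of Ppard in wild-type gland. Median intensities were 137.15 to 144.0 per array. The array of transgenic mice on chow differed in its spiked control BioB, whose 5′ probe set read 34.2 there and 282.7 to 307.3 on the others, and in the 5′ probe set of the Gapdh control, at 3573 against 8730 to 12274. Luminal epithelial markers were present on all arrays (Krt8 at 5613 to 8266), as were adipocyte genes (Adipoq at 9984 to 15057). In RNA of whole tissue, fewer cells of a type and less RNA per cell cannot be told apart.

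Hmgcs1 encodes the cytosolic HMG-CoA synthase, which makes the substrate of HMG-CoA reductase. Its brightest probe set read 1926 in wild type on chow, 2061 in transgenic on chow, 2173 in wild type on GW501516 and 2057 in transgenic on GW501516. These values spanned 1.13-fold, and no array was set apart. The other 3 probe sets did not share 1 order. One read 1471, 1816, 2199 and 2219 in the same order of arrays, and was lowest in wild type on chow. Another read 1839, 1833, 1607 and 1976, and was lowest in wild type on GW501516. The dimmest read 404.4, 452.4, 405.0 and 434.6. Hmgcs1 therefore has a direction for GW501516 in wild type that depends on the probe set, from -0.19 to 0.58 (log2).

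Idi1, the isomerase that makes the reactive isoprenoid dimethylallyl diphosphate, read 430.4 in wild type on chow, 699.3 in transgenic on chow, 672.1 in wild type on GW501516 and 677.9 in transgenic on GW501516. The wild-type chow array was low and the other 3 lay close together. A second probe set read 190.3, 406.2, 337.5 and 215.4, so that on it the transgenic GW501516 array was low as well. Fdps, which makes farnesyl diphosphate, the branch point to sterols, ubiquinone and protein prenylation, read 664.3 and 617.9 on chow in wild type and transgenic and 972.9 and 888.2 on GW501516. Both GW501516 arrays lay above both chow arrays. Its other probe set stayed below 1 on every array and carries no information on direction.

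Fdft1, squalene synthase, commits farnesyl diphosphate to sterols. It read 1725 in wild type on chow, 1714 in transgenic on chow, 2008 in wild type on GW501516 and 1267 in transgenic on GW501516. Its second bright probe set read 507.6, 474.2, 606.2 and 419.8 in the same order. On both, wild type on GW501516 was the highest array and transgenic on GW501516 the lowest. A further pair of Fdft1 probe sets lay below the floor on all arrays.

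Sqle, squalene epoxidase, is a rate-limiting oxygenase of the later pathway and was read by 1 probe set. It stood at 177.6 in wild type on chow, 607.3 in transgenic on chow, 203.1 in wild type on GW501516 and 395.6 in transgenic on GW501516. Both transgenic arrays lay above both wild-type arrays, and its span of 3.42-fold was the widest of the 7 members. Cyp51, lanosterol 14α-demethylase, read 195.7, 270.7, 283.6 and 305.4 in wild type on chow, transgenic on chow, wild type on GW501516 and transgenic on GW501516. Its second probe set read 94.2, 113.9, 141.9 and 81.6, with transgenic on GW501516 as the lowest rather than the highest array. Another Cyp51 probe set was below the floor throughout.

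Sc5d, the sterol C5-desaturase close to the end of the chain, read 381.0 in wild type on chow, 769.3 in transgenic on chow, 777.1 in wild type on GW501516 and 597.5 in transgenic on GW501516. A dim second probe set read 26.8, 39.4, 54.6 and 33.3. On both, wild type on chow was lowest and wild type on GW501516 highest. Over the 7 brightest probe sets, wild type on chow was the lowest array for 5 and the highest for 0. Wild type on GW501516 was the highest array for 4 of 7. Over the 14 member probe sets that reached the floor, these numbers were 9 lowest in wild type on chow and 7 highest in wild type on GW501516. Probe sets of 1 gene are not independent, and 4 of the 14 belong to Hmgcs1. The same shares over all genes were not counted.

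**Figure D1:**
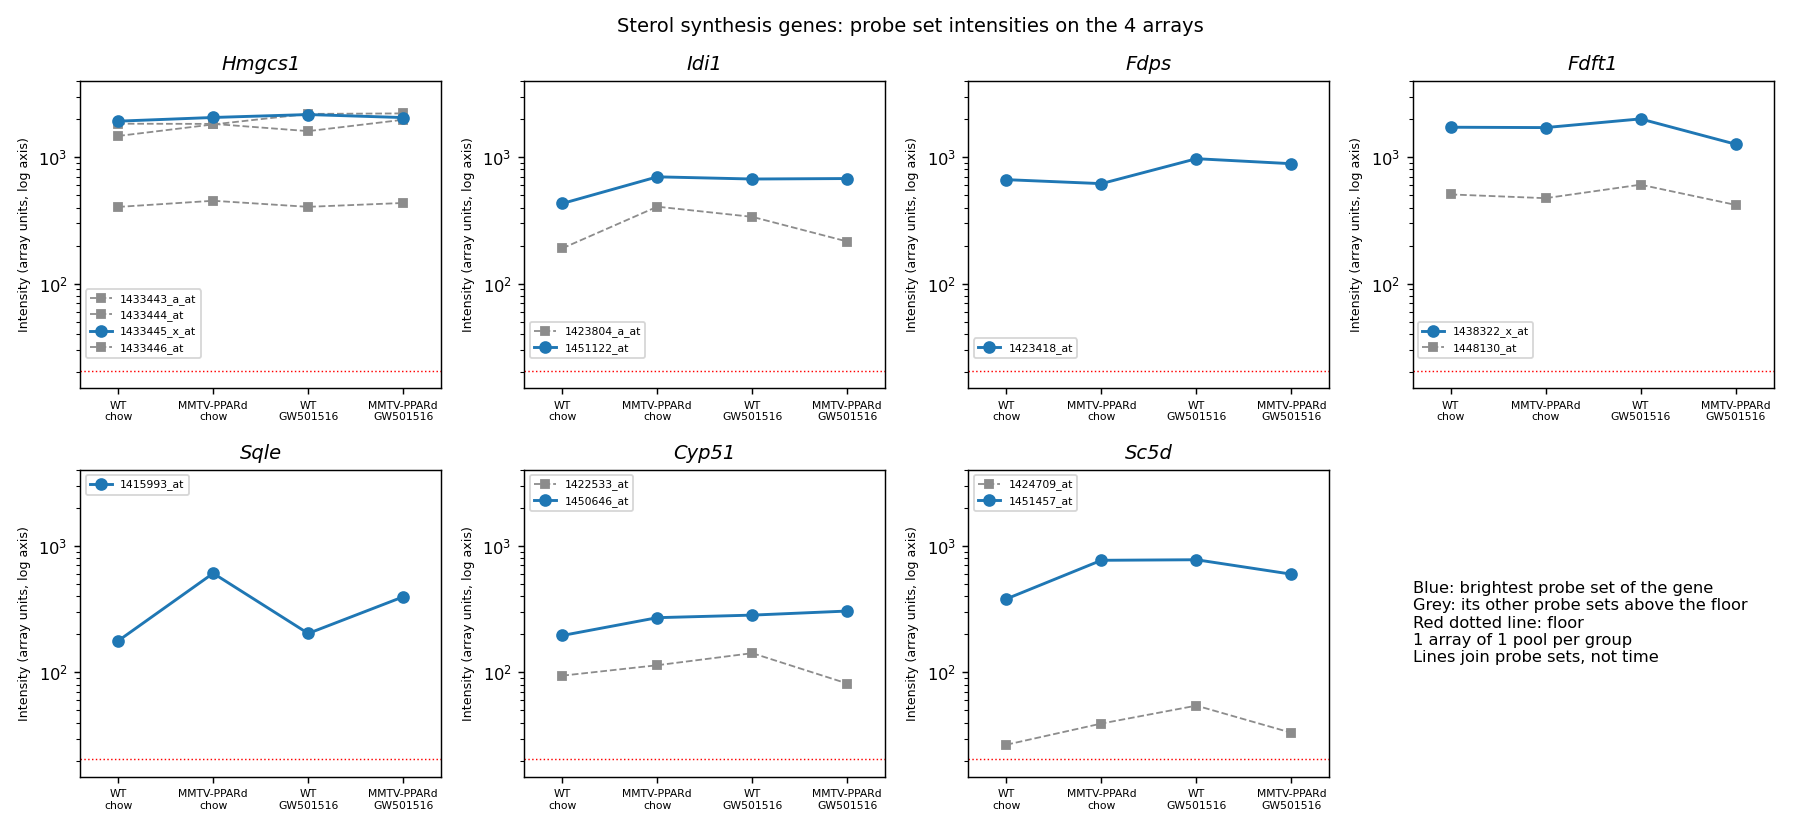
Probe set intensities of the 7 measured members (log axis, array units) on the 4 arrays, 1 array per group; blue marks the brightest probe set of a gene and grey its others above the floor (red dotted line). Sqle is higher on both transgenic arrays, Fdps on both GW501516 arrays, and Idi1 and Sc5d are lowest in wild type on chow.

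GW501516 in wild-type mice came with higher values of all 7 members, from 0.17 for Hmgcs1 to 1.03 for Sc5d (log2), with a median of 0.54. With the mean over each gene's probe sets the median was 0.28, and with probe sets without a suffix Hmgcs1 was at -0.19 and 6 of 7 were above 0. The median over the 7835 genes kept, those that reached 139 (the median of all values) on at least 1 array, was -0.037, and 45.0% of them were above 0. Sc5d was 2.04-fold higher on both of its probe sets and Idi1 1.56-fold on the brightest and 1.77-fold on the second. These 2 of 7 members reached 1.5-fold higher, against 6.85% of all genes, and 0 of 7 reached 1.5-fold lower, against 7.28%. At 2-fold these numbers were 1 of 7 (Sc5d) against 3.18% and 0 of 7 against 3.25%. Fdps (1.46-fold) and Cyp51 (1.45-fold) lay just under that threshold, while Fdft1 (1.16-fold) and Sqle (1.14-fold) were higher by little. Between probe sets of the same gene, differences in this comparison scattered with an SD of 0.35 (log2, 2534 genes), a measure that holds no scatter between arrays. Hmgcs1, Fdft1 and Sqle lie within that SD of 0. Of the 14 probe sets 13 were above 0, the exception being 1 of Hmgcs1 at -0.19.

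The same 2 arrays differed widely in markers of other tissues. All 12 skeletal muscle markers were higher on GW501516, with a summed intensity of 12187 on chow and 108436 on GW501516. T cell markers were lower, 6 of 6 kept, with sums of 4183 and 189.8, and Cd4 was below the floor on all arrays. B cell markers were lower too, 3 of 3 kept, with sums of 2290 and 173.1, and Pax5 was below the floor on all arrays. White adipocyte markers summed to 68322 and 72982 and luminal markers to 21665 and 24454, with 7 of 10 and 9 of 10 above 0. Milk genes summed to 17341 and 46398, with 6 of 8 at least 1.5-fold higher. Brown adipocyte markers were above 0 for 4 of 7, with a median of 0.42. The part of these markers in the members' values was not tested.

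In transgenic mice the members did not share a direction on GW501516. The median was -0.045 (0.025 after a shift of arrays to one median, 0.021 with quantile normalization). As deposited, 2 of 7 were above 0 and 5 below, where 46.8% of all genes were above 0. Under both of these scalings 4 of 7 members were above 0. On next brightest probe sets, kept for 4 members, the median was -0.33. Fdps was 1.44-fold higher, about as in wild type. Cyp51 was 1.13-fold higher on its brightest probe set but 1.40-fold lower on the second. Sqle was 1.54-fold lower, the only member past 1.5-fold in this comparison, where 12.0% of all genes were at least 1.5-fold lower and 10.1% higher. At 2-fold 0 of 7 passed in either direction, against 3.98% of all genes higher and 4.07% lower. With arrays shifted to one median Sqle was at -0.55 and Fdps at 0.59, so that Fdps and not Sqle passed the threshold, and under quantile normalization neither did. Fdft1 was 1.35-fold and Sc5d 1.29-fold lower, and Idi1 was 1.03-fold lower on its brightest probe set but 1.89-fold lower on the second. The chow side of this comparison is the array with low BioB and Gapdh control values. It also had a lower summed intensity of white adipocyte markers, 49969 against 69166 on GW501516. Luminal sums were 33279 and 37830, with 6 of 10 markers above 0 and 4 below. Of these markers Krt19 and Muc1 were at least 1.5-fold higher, and Cdh1 and Ehf at least 1.5-fold lower. Basal epithelial markers were below 0 for 4 of 6 (median -0.60) and brown adipocyte markers for 5 of 7 (-0.20). Skeletal muscle markers were higher on GW501516 for 12 of 12, with sums of 28909 and 103788, and T cell markers lower for 6 of 6 kept, with sums of 1405 and 169.1. Milk genes were at least 1.5-fold higher for 6 of 8, with sums of 44949 and 102971. Their part in these values was not tested.

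The log2 difference on GW501516 was lower in transgenic than in wild-type mice for all 7 members, with a median of -0.65 against 0.0054 over all genes. Of all genes, 49.5% were below 0. Both scalings left 6 of 7 below 0, with Fdps at 0.061 (arrays shifted to one median) and 0.0062 (quantile normalization). The gap was widest for Sc5d (-1.39), then Sqle (-0.81), Idi1 (-0.69) and Fdft1 (-0.65), and smaller for Cyp51 (-0.36), Hmgcs1 (-0.18) and Fdps (-0.027). The first 4 differed by at least 1.5-fold, 4 of 7, where 13.0% of all genes did so in this direction and 13.0% in the other. At 2-fold 1 of 7 did (Sc5d), against 5.25%, and 0 of 7 in the other direction, against 4.42%. Fdft1 was under 1.5-fold with arrays shifted to one median, at -0.57. For Sc5d the second probe set gave -1.27 and for Idi1 -1.74, and of 14 probe sets 13 were below 0. The SD between probe sets of a gene was 0.54 for this quantity, so that Cyp51, Hmgcs1 and Fdps lie within it on their brightest probe sets. The second probe set of Cyp51, at -1.07, lies outside it. With probe sets without a suffix the median was -0.43. All 4 arrays enter this difference, the transgenic chow array with its low control values among them. In the same quantity skeletal muscle markers were at least 1.5-fold lower for 12 of 12 (median -1.69). T cell markers were above 0 for 6 of 6 kept (1.62) and white adipocyte markers for 7 of 10 (0.35). Below 0 were basal epithelial markers for 5 of 6 (-0.80), brown adipocyte markers for 6 of 7 (-0.57) and luminal markers for 7 of 10 (-0.31). The part of these markers in the members' values was not tested.

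**Figure D2:**
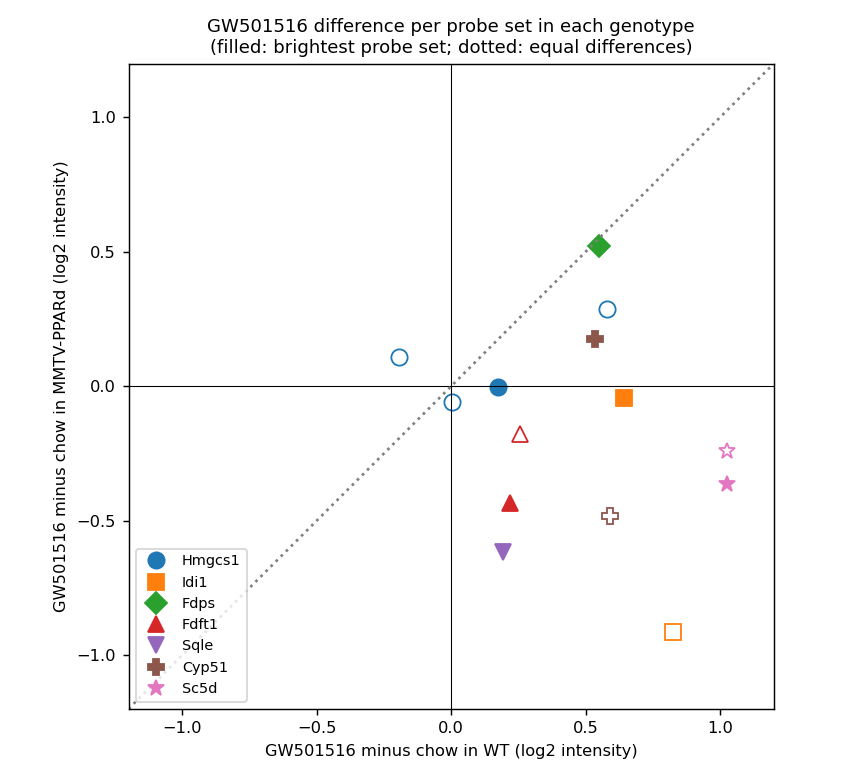
Difference of log2 intensity between GW501516 and chow in wild type (horizontal) and in MMTV-PPARd mice (vertical) for the 14 member probe sets that reached the floor; filled symbols are brightest probe sets and the dotted line marks equal differences. Of the 14 points 13 lie below the line, and Fdps lies close to it.

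On chow, the transgenic pool had higher values than wild type for 5 of 7 members, where 51.8% of all genes were higher. The member median was 0.47 against 0.020 over all genes. The median was 0.25 with the mean over probe sets and 0.29 on the next brightest probe sets of 4 members, of which 1 passed 1.5-fold. Sqle was 3.42-fold, Sc5d 2.02-fold and Idi1 1.62-fold higher. These 3 of 7 passed 1.5-fold, as did 12.3% of all genes, and 0 of 7 were 1.5-fold lower, as 11.2% were. At 2-fold 2 of 7 passed (Sqle and Sc5d), against 5.46%, and 0 of 7 were lower, against 3.70%. Cyp51 was 1.38-fold and Hmgcs1 1.07-fold higher, Fdft1 differed by 1.01-fold and Fdps was 1.08-fold lower. Between probe sets of a gene the SD was 0.38 here, and Hmgcs1, Fdft1 and Fdps lie within it. The second probe set of Idi1 was 2.13-fold and that of Sc5d 1.47-fold higher. Luminal epithelial markers were higher as well, with 7 of 10 at least 1.5-fold higher and sums of 21665 and 33279. White adipocyte markers were lower, with 9 of 10 below 0 and sums of 68322 and 49969. Milk genes summed to 17341 and 44949 but were split. At least 1.5-fold higher were 5 of 8, and 3 of 8 (Csn3, Lalba and Ltf) were at least 1.5-fold lower. Basal epithelial markers were above 0 for 5 of 6, with a median of 0.79. Brown adipocyte markers were above 0 for 4 of 7, with a median of 0.020. Skeletal muscle markers were higher for 12 of 12 (12187 and 28909), cell cycle genes for 7 of 7 (2614 and 5308), and T cell markers were lower for 6 of 6 kept (4183 and 1405). The part of these markers, and of the low control values of the transgenic chow array, was not tested.

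On GW501516 the same genotype comparison, which uses neither chow array, gave a member median of -0.079 (0.012 with probe sets that have no suffix in their name). Above 0 were 3 of 7 members and 50.2% of all genes. The member median was -0.23 with the mean over probe sets and -0.59 on the next brightest probe sets of 4 members. Sqle was again higher in transgenic mice, 1.95-fold, and was the 1 member past 1.5-fold in that direction, against 7.48% of all genes. Fdft1 was 1.58-fold lower, the 1 member past 1.5-fold lower, against 5.31%, and its second probe set gave 1.44-fold. At 2-fold 0 of 7 passed, against 2.82% of all genes higher and 1.19% lower. Sc5d was 1.30-fold lower on its brightest and 1.64-fold lower on its second probe set. Idi1 differed by 1.01-fold on its brightest probe set and was 1.57-fold lower on the second, and Cyp51 was 1.08-fold higher on its brightest and 1.74-fold lower on the second. For Idi1 and Cyp51 the level in transgenic mice on GW501516 therefore rests on the choice of probe set. Luminal markers were higher in transgenic mice here too, 9 of 10 above 0 and 6 of 10 at least 1.5-fold, with sums of 24454 and 37830. White adipocyte sums were 72982 and 69166, with 8 of 10 markers below 0, and milk genes summed to 46398 and 102971. Cell cycle genes were at least 1.5-fold higher for 7 of 7, with sums of 2130 and 4450. Brown adipocyte markers were below 0 for 6 of 7, with a median of -0.55. The part of these markers in the members' values was not tested.

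Set against wild type on chow, the transgenic pool on GW501516 had 4 of 7 members at least 1.5-fold higher, where 10.3% of all genes were, and 0 of 7 lower, where 9.96% were. At 2-fold 1 of 7 was higher (Sqle), against 5.50%, and 0 of 7 lower, against 4.21%. Sqle was 2.23-fold, Idi1 1.58-fold, Sc5d 1.57-fold and Cyp51 1.56-fold higher. Fdps was 1.34-fold and Hmgcs1 1.07-fold higher and Fdft1 1.36-fold lower, and the median was 0.64 against -0.023 over all genes. With the mean over probe sets the median was 0.22, and on the next brightest probe sets of 4 members it was -0.014, each with 1 member past 1.5-fold. On second probe sets Idi1 (1.13-fold) and Sc5d (1.24-fold) were higher by less and Cyp51 was 1.15-fold and Fdft1 1.21-fold lower, while the next brightest probe set of Hmgcs1 was 1.51-fold higher. This comparison shares its wild-type chow array with GW501516 in wild type and with the transgene on chow, so these 3 sets of values are not independent. In the same pair of arrays the 12 skeletal muscle markers were all at least 1.5-fold higher. T cell markers were at least 1.5-fold lower for 6 of 6 kept, and luminal markers at least 1.5-fold higher for 7 of 10. Brown adipocyte markers were below 0 for 5 of 7, with a median of -0.14. The part of these markers was not tested.

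**Figure D3:**
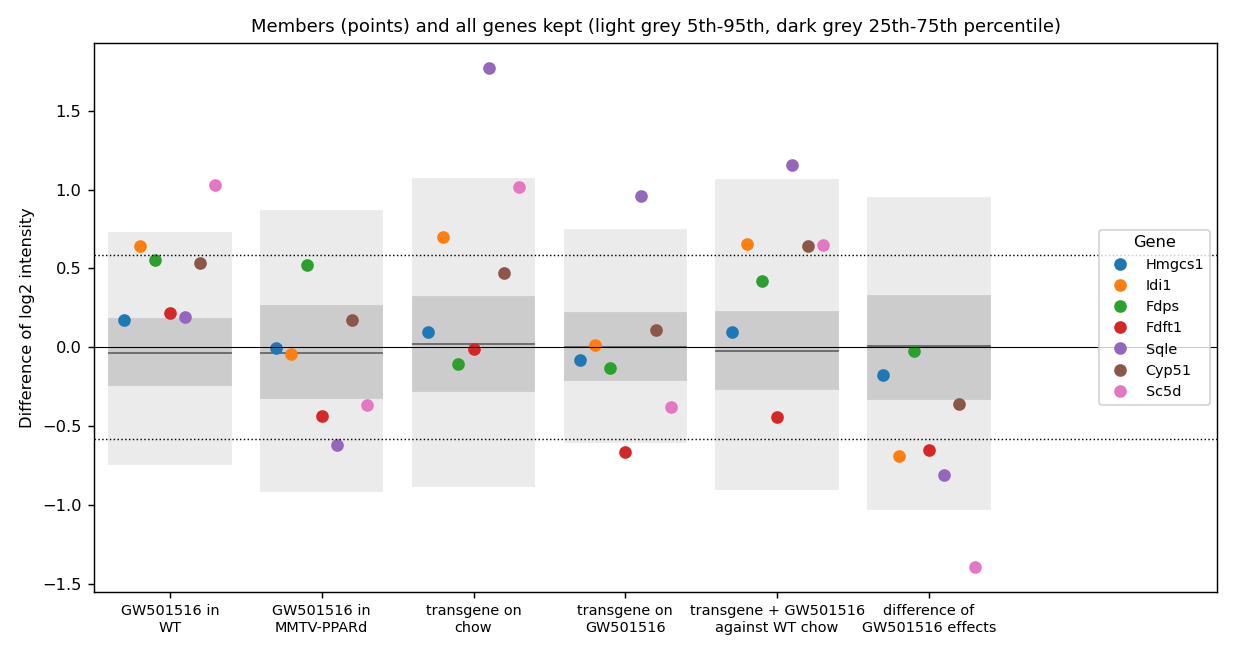
Difference of log2 intensity of the 7 members (coloured points) in the 6 comparisons, over the spread of the 7835 genes kept (light grey 5th to 95th percentile, dark grey 25th to 75th, line at the median); dotted lines mark 1.5-fold. Sc5d lies above the light band for GW501516 in wild type and below it for the difference of GW501516 effects, and Sqle lies above it in both transgene comparisons and in the combined one. Fdft1 lies below it for the transgene on GW501516.

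The remaining enzymes of the chain were described by a list of 14 genes, of which 11 had a probe set and 9 passed the filter. With GW501516 in wild type 7 of 9 were above 0, with a median of 0.30. Of these, Nsdhl, a decarboxylating sterol dehydrogenase, was 1.58-fold higher (624.2 on chow and 988.1 on GW501516). Lss, lanosterol synthase, was 1.51-fold higher (149.7 and 226.2), and was under 1.5-fold with arrays shifted to one median. Lss lay outside the rule for named genes and is given because it is 1 of only 2 that passed. Its second probe set was at 102.9 and 257.7. Mvd, the decarboxylase that makes isopentenyl diphosphate, read 64.5 and 94.7, and Pmvk, phosphomevalonate kinase, 448.5 and 604.4. Lbr, a sterol reductase of the inner nuclear membrane that also anchors chromatin, was 1.40-fold lower. Members and this list together held 16 genes, of which 14 were above 0 and 4 at least 1.5-fold higher, where 45.0% and 6.85% of all genes were.

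In transgenic mice on GW501516 the median of this list was 0.18, with 7 of 9 above 0, beside 2 of 7 members and 46.8% of all genes. With arrays shifted to one median it was 0.34 and with quantile normalization 0.33, each with 8 of 10 above 0 beside 4 of 7 members. Mvd was 2.13-fold higher (80.0 on chow and 170.8 on GW501516), the highest of the 9. Only on the transgenic GW501516 array did Mvd reach the filter of 139, so it was kept through that high value. Lss was 1.57-fold higher and Lbr 1.66-fold lower. The difference of the GW501516 effects had a median of 0.027 in this list. Below 0 were 4 of 9, beside 7 of 7 among the members and 49.5% of all genes. These are values of brightest probe sets. For Lss the second probe set was at -0.92 in this quantity, against 0.051 on the brightest. Between genotypes on GW501516, Mvd was 1.80-fold higher and Pmvk 1.68-fold lower in transgenic mice. On chow, Tm7sf2, a sterol C14-reductase, was 1.51-fold lower in transgenic mice and none of the 9 was 1.5-fold higher. Of all genes, 11.2% were at least 1.5-fold lower and 12.3% higher there. Tm7sf2 too was named after its value was seen. The list's medians in the genotype comparisons were 0.035 on chow (-0.13 after a shift to one median, -0.12 with quantile normalization) and 0.0062 on GW501516 (-0.012 with quantile normalization), so they have no settled sign. Under both other scalings 10 genes of the list passed the filter rather than 9.

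SREBP processing genes were read for 6 of 9. Srebf2, which encodes SREBP2 itself, read 153.5 in wild type on chow, 142.1 in transgenic on chow, 136.4 in wild type on GW501516 and 140.9 in transgenic on GW501516. No array stood apart for it, and it is named beside the rule as the factor of the pathway. Srebf1, the related factor of fatty acid synthesis, read 3337, 4118, 3650 and 6664 and was 1.83-fold higher in transgenic than wild-type mice on GW501516. Insig2, the retention protein related to Insig1, read 592.2, 772.9, 771.9 and 752.3 on its brightest probe set. Its other 2 probe sets read 399.3, 584.7, 599.0 and 430.0, and 232.2, 347.7, 311.9 and 263.8. On all 3 the wild-type chow array was lowest and the transgenic GW501516 array next, as on both probe sets of Sc5d. Scap, the sterol sensor, was 1.30-fold lower with GW501516 in wild type, and the protease Mbtps1 stayed within 1.13-fold in the 4 comparisons of 1 factor.

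Other SREBP2 targets and genes of sterol uptake were read for 6 of 8, and their median was -0.038 with GW501516 in wild type. There 0 of 6 were past 1.5-fold, where 6.85% of all genes were higher and 7.28% lower. In transgenic mice on GW501516 the list's median was 0.45. Of all genes 10.1% were at least 1.5-fold higher there, and of this list 3 of 6. These were Lipa, the lysosomal lipase that frees cholesterol from its esters, at 1308 on chow and 2688 on GW501516, Tmem97, a sterol-responsive membrane protein, at 121.2 and 212.8, and Scarb1, the receptor for high-density lipoprotein, at 893.5 and 1412. The other probe sets of Scarb1 were 0.90 and 0.11 higher (log2), and that of Lipa was 1.34-fold higher (447.2 and 597.3). Stard4, a cholesterol carrier protein, went the other way, from 155.6 to 91.4. Only on the transgenic chow array did Stard4 reach the filter of 139, so it was kept through that high value.

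Genes of LXR and sterol efflux, 6 of 10 kept, were all below 0 for the transgene on chow, with a median of -0.14. Of all genes, 48.0% were below 0 there. Apoe, which carries cholesterol in lipoproteins, read 10621 in wild type and 5908 with the transgene, and Nr1h3, which encodes LXRα, 283.2 and 165.9. With GW501516 in wild type Abcg1, a cholesterol exporter, was 1.86-fold lower (618.8 and 332.2). It was the only 1 of 6 past 1.5-fold, where 7.28% of all genes were lower and 6.85% higher. Cyp27a1, which makes 27-hydroxycholesterol, was 1.42-fold higher. Isoprenoid branch genes, 4 of 10 kept, stayed within 1.5-fold in wild type on GW501516. Nus1, of dolichol synthesis, read 1083 in wild type and 1629 with the transgene on chow, past 1.5-fold as deposited and below it under both other scalings. Ggps1, which makes geranylgeranyl diphosphate, was 1.56-fold lower on GW501516 in transgenic mice, also under the threshold with both other scalings, and its second probe set was lower by less (-0.15, log2). Dhdds and Fnta, of dolichol synthesis and protein prenylation, differed by at most 1.25-fold in the 4 comparisons of 1 factor.

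SREBP1 targets of fatty acid synthesis, 11 of 12 kept, lay beside the members with GW501516 in wild type, with a median of 0.57. Above 0 were 11 of 11, where 45.0% of all genes were. At least 1.5-fold higher were 4 of 11, where 6.85% of all genes were. Elovl6, a fatty acid elongase, read 1877 in wild type on chow, 2699 in transgenic on chow, 4315 in wild type on GW501516 and 1780 in transgenic on GW501516. Acss2, which makes acetyl-CoA from acetate, read 1568, 2122, 3521 and 2392. Both were highest in wild type on GW501516, and their GW501516 differences were smaller in transgenic mice, by -1.80 and -0.99 (log2). For Acss2 the second probe set read 1280, 1538, 3210 and 3096, with a gap of -0.32. Gpam, which starts glycerolipid synthesis, was 2.13-fold lower for the transgene on chow, where the list's median was -0.21. For Fads2, a fatty acid desaturase, probe sets went opposite ways on GW501516 in transgenic mice (-0.60 and 0.18), while both were higher for the transgene on chow (1.87 and 1.10).

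**Figure D4:**
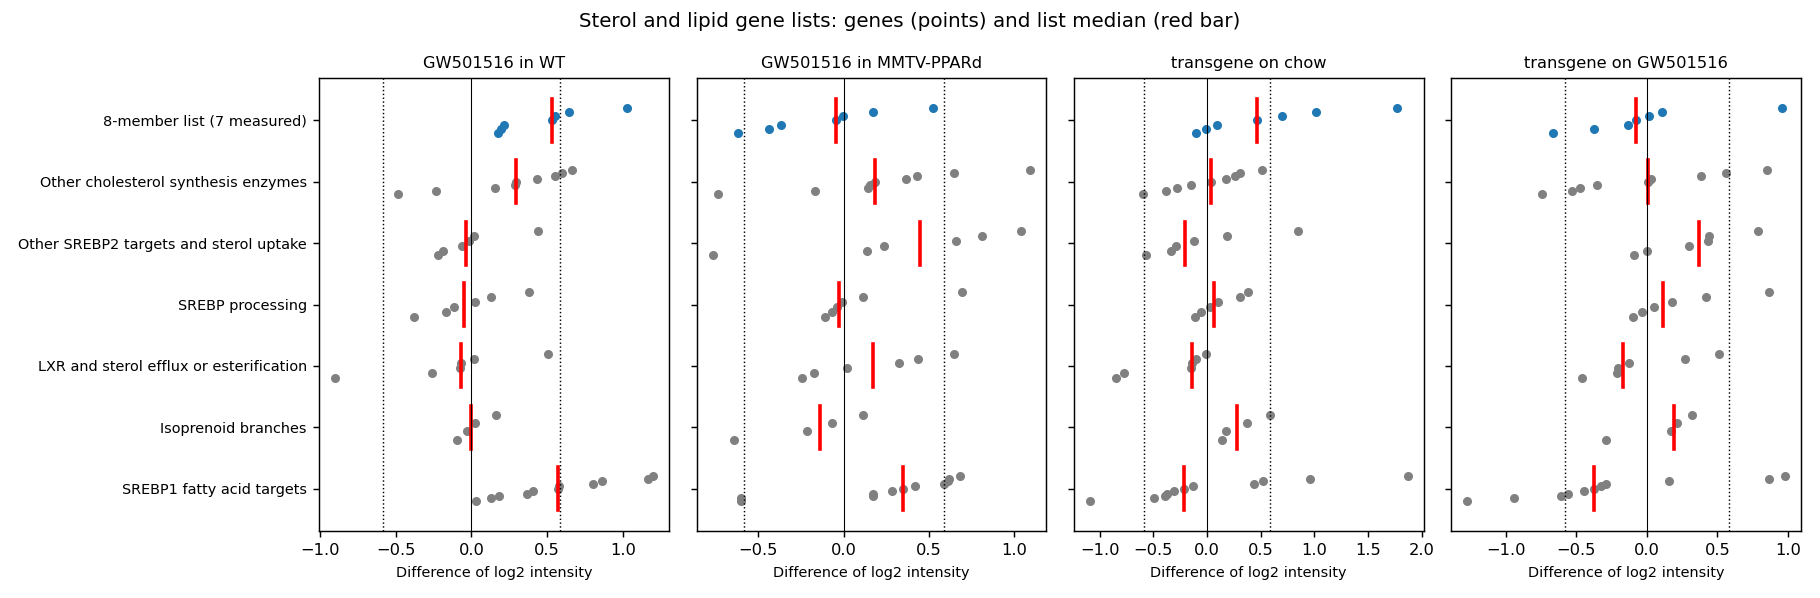
Difference of log2 intensity for genes of the member list (blue) and of 6 related lists (grey) in the 4 comparisons that differ in 1 factor; red bars are list medians and dotted lines mark 1.5-fold. With GW501516 in wild type the member median is 0.54, that of other cholesterol enzymes 0.30 and that of SREBP1 targets 0.57, while the other 4 medians lie between -0.071 and -0.0014.

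The members did not share 1 profile over the 4 arrays. Each gene's log2 values were centred on their mean and set against the members' median profile, which was -0.40 in wild type on chow, 0.071 in transgenic on chow, 0.16 in wild type on GW501516 and 0.17 in transgenic on GW501516. Cyp51 (a Euclidean distance of 0.072) and Idi1 (0.17) lay close to it, while Fdft1 (0.73) and Sqle (1.26) were farther from it than 62.5% and 91.0% of all genes outside the lists. The members themselves make up this profile. The 6 nearest other genes over these 4 arrays were Ubap1 (0.025), E4f1 (0.028), Hbs1l (0.054), Dnajc21 (0.081), Mllt3 (0.086) and Htatsf1 (0.094). Ubap1 read 281.8, 399.5, 418.6 and 423.8 in wild type on chow, transgenic on chow, wild type on GW501516 and transgenic on GW501516. The likeness is a description of these 4 pools.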

How the data were processed

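RNA of mammary glands, pooled from 5 mice per group, was measured on 4 Affymetrix arrays of 22690 probe sets, 1 array per group. Per the labels' protocols, 6 µg of RNA was made into biotin-labelled cRNA. The deposited values are linear probe set intensities; the authors' scaling shows as a trimmed mean (lowest and highest 2% left out) of 500.17 to 500.2 on every array. For summarisation software, detection calls and genome build, nothing is given in the sources used here. One platform symbol named 20380 probe sets, of which 20351 were updated by gene ID through RefSeq's gene table of GRCm38.p6; 691 with several symbols, 1606 not listed and the array's own control probe sets named no gene.

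The brightest probe set by mean intensity stood for each gene. Values below 20.5 (25th percentile) were raised to it, log2 was taken, and the 7835 of 12393 genes with at least 1 array at or above 139 (the median) were kept. Comparisons are differences of log2 intensity, counted at 1.5-fold, with no test. With no replicates, a member median counted as moved when an alternative shifted it by more than the SD between probe sets of a gene divided by the square root of 7, and a count when it differed by more than 1.5 times. Steps were tested on simulated data. Python 3.11.15, numpy 2.4.6 and pandas 2.3.3 were used. Genes named are the members, Ppard, up to 4 genes per pathway list with the largest difference in any comparison of 1 factor, and the 6 nearest in profile. Members and lists were chosen with earlier results of these data known. Alternatives covered scaling, floor, filter, fold and choice of probe set; the next brightest probe set was added after seeing the data. The number of arrays limits the precision.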

Additional observations from a re-analysis of the deposited data

Results flagged for a closer look

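The GW501516 difference had opposite signs in the 2 genotypes, each read on 1 pair of arrays, for 5 members. The share of all genes with opposite signs was not counted, so this number is not a trait of the members. Of all genes, 45.0% were above 0 on GW501516 in wild type and 46.8% in transgenic mice. The difference between genotypes, transgenic minus wild type, was -1.39 for Sc5d, -0.81 for Sqle, -0.69 for Idi1, -0.65 for Fdft1 and -0.18 for Hmgcs1 (log2). With arrays shifted to one median or under quantile normalization Idi1 and Hmgcs1 no longer had opposite signs (in transgenic mice Idi1 was at 0.025 and 0.029, and Hmgcs1 at 0.068 and 0.021). For Sc5d and Hmgcs1 the transgene difference also had opposite signs on the 2 diets, with the same values of -1.39 and -0.18, since it is the same quantity. None of these differences was tested, as there is 1 array per group.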

How the results depend on the processing

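No paired analysis was possible because each group is 1 array and the comparisons come from no test. Of 114 values under alternatives, 93 stayed within tolerance (for counts, within 1.5 times), 20 moved and 1 reversed. Floors and filters left every count as it was. The shift to one median stayed within tolerance, but it took the count for the difference of effects from 4 to 3 (without Fdft1), turned the GW501516 median in transgenic mice to 0.025, and exchanged Sqle for Fdps past 1.5-fold there. Under quantile normalization that comparison had 0 members past 1.5-fold. With the mean over probe sets, in which probe sets at the floor count as no difference, medians were 0.28 (GW501516 in wild type), 0.25 (transgene on chow), -0.23 (transgene on GW501516) and 0.22 (combined), and the last 2 comparisons had 1 member each past 1.5-fold. With probe sets without a suffix, 1 member passed for the transgene on GW501516 and the median difference of GW501516 effects was -0.43. With the next brightest probe set, kept for 4 members only, medians were -0.33 (GW501516 in transgenic), 0.29 (transgene on chow), -0.59 (transgene on GW501516) and -0.014 (combined, reversed). Counts were then 1 for the transgene on chow, 1 combined and 2 for the difference of effects. At 2-fold, 1 member passed for GW501516 in wild type, 0 for GW501516 in transgenic, 0 for the transgene on GW501516, 1 combined and 1 for the difference of effects. Beyond fewer members or a stricter fold, the cause was not tested.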
